A study of Zea mays with 47 samples.

Results

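Transcript levels of 5 maize genes for small heat shock proteins (sHSPs) were followed across 8 inbred lines and 3 heat levels. The genes were named beforehand by their identifiers and make up 5 of the 17905 genes in the count table. The study annotated GRMZM2G034157 as a 17.8 kDa and GRMZM2G083810 as a 17.5 kDa class II heat shock protein. It annotated GRMZM2G049767 and GRMZM2G158232 as 16.9 kDa class I heat shock proteins, numbered 3 and 1, and GRMZM2G306679 as a 17.4 kDa class I heat shock protein, numbered 3. In the RefSeq gene table the class II pair carry the names hsp18c and hsp18f. All 5 belong to the heat responsive genes that the study selected on these same libraries, so their overall rise with temperature is a description and not independent evidence.

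Small heat shock proteins are chaperones that work without ATP. They bind proteins that are beginning to unfold, keep them from aggregating, and hand them to HSP70 and HSP101, which refold them. Plants have an unusually large family of these proteins, with class I and class II in the cytosol and other classes in organelles. Their genes are nearly silent in unstressed leaves and are switched on by heat stress transcription factors, and the abundance of the proteins is often taken as a sign that a leaf has sensed heat.

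RNA was sequenced from the latest fully developed leaf of maize seedlings of 4 Flint lines (L012, L017, L023, L043) and 4 Dent lines (P040, S058, S067, S070). The study chose L012, L043, S058 and S067 as heat tolerant and L017, L023, P040 and S070 as heat susceptible. Plants grew at a day temperature of 25°C, or at 32°C or 38°C after their first days, with a separate growth chamber experiment for each, so that heat and experiment cannot be told apart. Each library was a pool of leaf pieces from 5 plants, and each combination of line and heat level had 2 libraries, apart from L017 at 32°C with 1, which gives 47 libraries. No agent other than temperature was applied.

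Library totals ranged from 3687700 to 20642205 counts. Levels are given as CPM, the count divided by the library total and a scaling factor of that library and expressed per 1e+06 counts. The factor was edgeR's TMM, a trimmed mean of log ratios between libraries. The TMM factors were 0.392 to 0.721 at 25°C, 0.657 to 2.17 at 32°C and 1.28 to 3.16 at 38°C. The 2.17 was that of the library labelled P040 replicate 2, and the next highest at 32°C was 1.33, in the library labelled S070 replicate 1. Both lie within the range at 38°C. A log2 slope is the fitted log2 change in expression from 25°C to 38°C, with 32°C placed in between in proportion to temperature. Leaf identity was checked with 4 mesophyll and 4 bundle sheath markers, and none of these was at 0 in any library. The summed mesophyll markers were 3149 to 5958 CPM at 25°C, 1356 to 5149 CPM at 32°C and 1599 to 4631 CPM at 38°C. The summed bundle sheath markers were 774 to 2445 CPM at 25°C, 234 to 1950 CPM at 32°C and 345 to 1074 CPM at 38°C. Single markers did not all move alike. The median of the bundle sheath marker GRMZM2G113033 was 18.2 CPM at 25°C and 37.2 CPM at 38°C. The medians of all other markers were lower at 38°C than at 25°C, for the mesophyll marker GRMZM2G129513 only from 93.1 to 86.9 CPM. The part of this shift in the results was not tested, and in pooled leaf RNA fewer cells of a type and less RNA per cell cannot be told apart.

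As a check on the line labels, profiles of 5995 genes, centred within each heat level, were correlated between each library at the lower temperatures and the line means at 38°C. At 32°C, replicate 1 under the label S070 gave r = 0.629 with P040 against -0.05 with S070, and replicate 1 under the label P040 gave r = 0.474 with S070 against -0.12 with P040. Replicate 2 under the label P040 gave r = 0.226 with L017 against 0.132 with P040, a small difference. The other 28 libraries were closest to the line in their label. None was relabelled. The slopes, the steps, the departure from linearity, the differences of slope between lines and the profile correlations below are also given without these 3 libraries.

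The class II gene GRMZM2G034157 (17.8 kDa) was close to silent in the cool leaves. At 25°C its level was 0 at the lowest, 0.156 CPM in the median and 0.442 CPM at the highest of 16 libraries, and 7 of them held no read. At 32°C the 15 libraries ranged from 0 to 0.422 CPM with a median of 0.181 CPM, which covers the same range as at 25°C. At 38°C every library held reads, and the level was 0.0659 CPM at the lowest, 0.594 CPM in the median and 2.52 CPM at the highest. Of the 16 libraries at 38°C, 9 lay above the highest at 25°C. Its reads were few, 326 over all libraries, of which 17 came from 25°C, 33 from 32°C and 276 from 38°C.

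The other class II gene, GRMZM2G083810 (17.5 kDa), was also close to silent without heat. Its level at 25°C was 0 in 9 of 16 libraries and 0.243 CPM at the highest. At 32°C the median was 0.141 CPM, with 1 library, labelled P040 replicate 2, far above the others at 3.33 CPM. At 38°C the level ran from 0.205 CPM through a median of 1.36 CPM to 5.40 CPM, and 15 of 16 libraries exceeded the highest library at 25°C.

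Among the class I genes, GRMZM2G049767 (16.9 kDa) was the faintest. It had 0 counts in all 16 libraries at 25°C, which allows up to 0.0216 CPM over that heat level. At 32°C 9 of 15 libraries were at 0 and the highest, labelled S070 replicate 1, stood at 0.492 CPM. At 38°C 5 of 16 libraries were still at 0, the median was 0.115 CPM and the highest 1.79 CPM. Pooled over the libraries of a heat level, its level at 38°C was at least 17.8-fold higher than at 25°C, taken against 3 counts over the cool libraries. This gene had 119 counts in all, and the floor and the intervals given here cover counting error only.

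GRMZM2G158232 (16.9 kDa) behaved differently from the other members, since several lines expressed it without heat. At 25°C its level was 0 in 4 libraries, 2.69 CPM in the median and 9.38 CPM at the highest, in L012. At 32°C the median was 4.93 CPM and the highest 13 CPM. At 38°C the range widened to 0.155 to 55.7 CPM, with a median of 7.56 CPM. The groups overlapped, and 6 of 16 libraries at 38°C lay above the highest at 25°C. It took 5095 of the reads counted on the 5 genes, 70.9% of them, without adjustment for transcript length.

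GRMZM2G306679 (17.4 kDa, class I) was the one member whose libraries at 25°C and 38°C did not overlap. At 25°C 10 of 16 libraries were at 0 and the highest reached 0.263 CPM. At 32°C the median was 0.181 CPM, with 5.71 CPM in the library labelled P040 replicate 2. At 38°C the lowest library had 0.330 CPM, the median 1.67 CPM and the highest 12.4 CPM. All 16 libraries at 38°C lay above all 16 at 25°C, which held for 0.631% of all genes. Since the study chose these genes for their response to heat, nothing is read from that share.

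**Figure D1:**
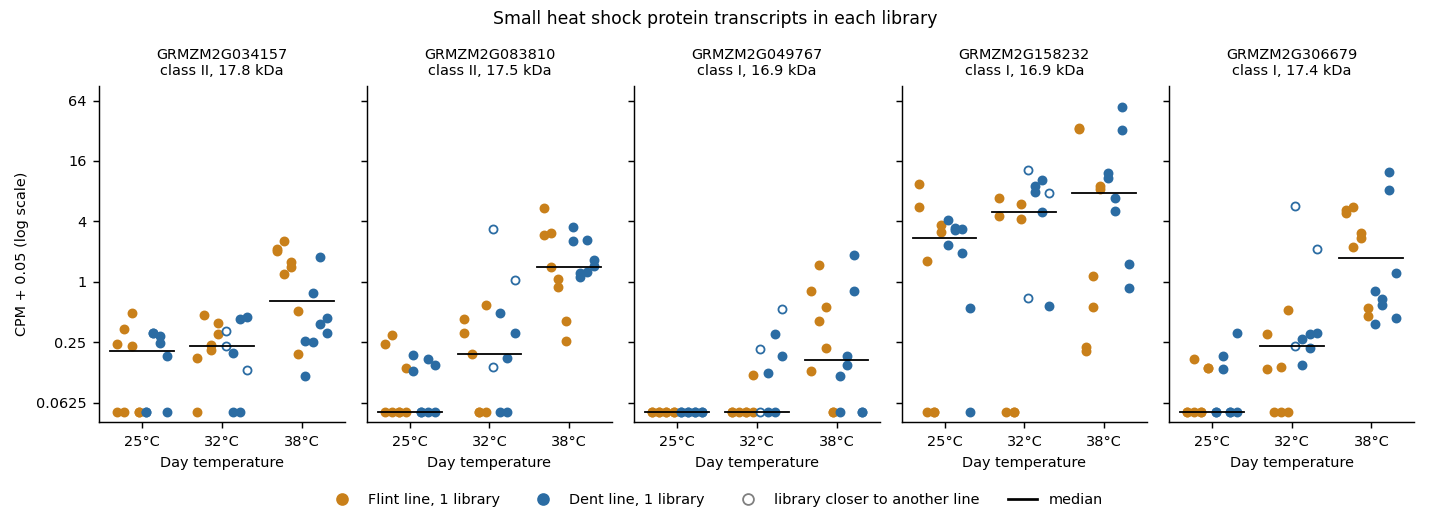
Level of each small heat shock protein gene in each library, as CPM + 0.05 on a log scale, against the day temperature. Each point is 1 library, orange for Flint and blue for Dent lines, open points are the 3 libraries whose profile was closer to another line, and black bars are medians. GRMZM2G306679 separates 25°C from 38°C without overlap, GRMZM2G049767 is at 0 in all libraries at 25°C, and GRMZM2G158232 is expressed at 25°C in most lines.

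All 5 genes had a positive log2 slope above 2 over all libraries at an adjusted p under 0.05 (edgeR quasi-likelihood F test, Benjamini-Hochberg over 17905 genes), as did 2.52% of all genes. The slope was 5.20 ± 0.71 (SE, 47 libraries) for GRMZM2G306679, with an adjusted p of 7.43e-08. It was 4.87 ± 0.82 for GRMZM2G049767 and 4.62 ± 0.59 for GRMZM2G083810. The smallest slopes were 3.02 ± 0.52 for GRMZM2G034157, with an adjusted p of 5.89e-06, and 2.37 ± 0.64 for GRMZM2G158232, with an adjusted p of 0.00211. The median slope of all 17905 genes was 0.08. For GRMZM2G158232 the slope fell under the limit of 2 when S067 was left out (1.78, adjusted p = 0.0362) and when the line was a covariate (1.90, adjusted p = 0.000426). All 5 genes also passed without the 3 doubtful libraries, with slopes from 2.37 for GRMZM2G158232 to 6.67 for GRMZM2G306679. In that fit 614 of 17905 genes passed with a slope beyond 2 in either direction. The slope of GRMZM2G049767 is fitted against libraries at 0 and depends on the prior count of the fit, and is no bound.

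With counts scaled by library totals alone, the median slope of all genes was 1.86 and 99.6% of the calls were higher, against 55.3% under TMM. The slopes of the 5 genes were then 4.43 to 6.92. Relative to the median of all genes they lay between 2.58 and 5.07, against 2.29 to 5.12 under TMM, and no gene changed direction.

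The second question was at which step of temperature the genes rose. The steps and the departure from linearity were fitted with the line as a covariate, unlike the slope over all libraries, so steps and slope come from different models. Between 25°C and 32°C, GRMZM2G083810 rose by 2.73 ± 0.65 on the log2 scale (adjusted p = 8.17e-04), GRMZM2G306679 by 3.57 ± 0.95 (adjusted p = 0.00258) and GRMZM2G049767 by 3.60 ± 1.28 (adjusted p = 0.0269). GRMZM2G158232, with 1.04 ± 0.45 (adjusted p = 0.0627), and GRMZM2G034157, with 0.85 ± 0.57 (adjusted p = 0.249), did not pass the test. The fitted value of GRMZM2G049767 is set against 16 libraries at 0 and depends on the prior count, and by its reads the pooled level at 32°C was at least 4.16-fold higher than at 25°C. Of its 15 reads at 32°C, 6 came from the library labelled S070 replicate 1 and 3 from that labelled P040 replicate 2. Both are among the doubtful libraries, and the bound was not worked out without them. The count of 3 of 5 stands beside 21.1% of all genes called higher at this step. Without the 3 doubtful libraries GRMZM2G083810 alone passed, with 1.82 ± 0.64 (adjusted p = 0.0226), beside 6784 of 17905 genes called in either direction. GRMZM2G306679 then stood at 1.53 ± 0.78 (adjusted p = 0.120) and GRMZM2G049767 at 2.50 ± 1.17 (adjusted p = 0.0970). Leaving out 1 library at a time, GRMZM2G158232 passed without either L012 library at 32°C, without L017 at 25°C replicate 2, without P040 at 32°C replicate 1 or without S067 at 32°C replicate 2, with adjusted p from 0.0195 to 0.0483.

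Between 32°C and 38°C, the rise was 2.05 ± 0.39 for GRMZM2G083810 (adjusted p = 6.84e-05), 1.76 ± 0.43 for GRMZM2G034157 (adjusted p = 0.00131) and 1.90 ± 0.58 for GRMZM2G306679 (adjusted p = 0.0105), all on the log2 scale. GRMZM2G049767, with 1.41 ± 0.74 (adjusted p = 0.148), and GRMZM2G158232, with 0.87 ± 0.42 (adjusted p = 0.104), missed the threshold. For each of them, 38°C lay above 32°C without overlap in 5 of 8 lines and below in 1. For GRMZM2G158232 that line was S058, with 7.78 and 8.89 CPM, then 6.73 and 5.04 CPM. By library totals alone S058 had 7.16 and 7.11 CPM, then 15.7 and 11.1 CPM. For GRMZM2G049767 it was S070, with 6 and 2 counts at 32°C and none at 38°C. At this step 16.8% of all genes were called higher. Without the 3 doubtful libraries all 5 genes passed, beside 6407 of 17905 genes called in either direction. GRMZM2G306679 rose by 3.74 ± 0.44 (adjusted p = 1.26e-08), GRMZM2G083810 by 2.82 ± 0.39, GRMZM2G049767 by 2.55 ± 0.73, GRMZM2G034157 by 2.10 ± 0.43 and GRMZM2G158232 by 1.42 ± 0.35 (adjusted p = 0.00149). Without S070 at 32°C replicate 1 both missing genes passed, GRMZM2G049767 with an adjusted p of 0.0365 and GRMZM2G158232 with 0.00500, and GRMZM2G158232 also passed without P040 at 32°C replicate 2, with 0.0485.

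The departure of the 32°C level from a straight line between 25°C and 38°C passed for none of the 5 genes (edgeR, adjusted p from 0.305 to 0.987), and none had an unadjusted p under 0.05. Of all genes 24.5% passed. With all libraries the estimates ran from -0.56 ± 0.46 for GRMZM2G034157 to 0.90 ± 0.61 for GRMZM2G049767 on the log2 scale. Without the 3 doubtful libraries all 5 were negative, from -1.31 to -0.22, also with none past the threshold.

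**Figure D2:**
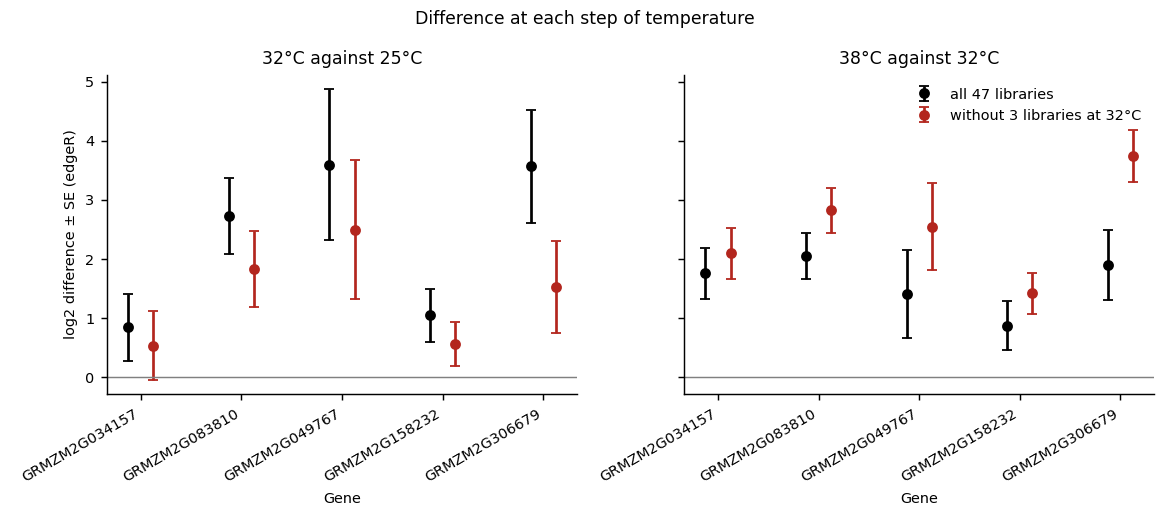
Log2 difference between heat levels for each of the 5 genes, with 32°C against 25°C on the left and 38°C against 32°C on the right. Points are edgeR estimates and bars are standard errors, black with all 47 libraries and red without the 3 libraries closer to another line. GRMZM2G306679 moves from 3.57 to 1.53 at the lower step and from 1.90 to 3.74 at the upper step.

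The libraries labelled P040 and S070 at 32°C carry this shift, and the genes differ there between libraries of 1 label. For GRMZM2G158232, the libraries labelled P040 had 0.635 CPM (7 counts) and 13 CPM (234 counts), and those labelled S070 had 7.71 CPM (94 counts) and 0.522 CPM (8 counts). At 38°C, where the labels were the reference, P040 stood at 12 and 10.9 CPM and S070 at 0.818 and 1.45 CPM. The same pair differed in GRMZM2G306679, with 0.181 CPM in the library labelled P040 and 2.05 CPM in the library labelled S070. In GRMZM2G083810 these libraries had 0.0907 and 0.985 CPM. The library labelled P040 replicate 2 was the highest of all 15 at 32°C in GRMZM2G083810, GRMZM2G158232 and GRMZM2G306679, and its 5.71 CPM in the last lay above both P040 libraries at 38°C, with 0.761 and 0.330 CPM.

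**Figure D3:**
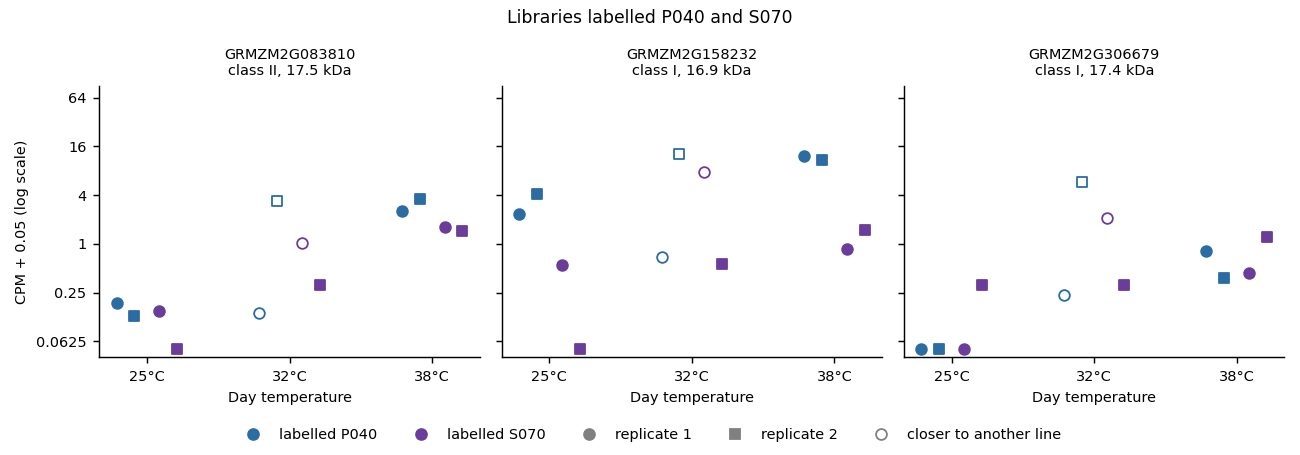
CPM + 0.05 on a log scale in the libraries labelled P040 and S070 at the 3 heat levels, for 3 of the genes. Circles are replicate 1, squares replicate 2, and open symbols mark libraries closer to another line. At 32°C the library labelled S070 replicate 1 lies above the library labelled P040 replicate 1 in all 3 panels, while at 25°C and 38°C P040 lies above S070 in GRMZM2G158232.

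At 38°C the level of each of the 5 genes differed between lines (edgeR F test over 8 lines, adjusted p from 1.08e-06 for GRMZM2G158232 to 0.0251 for GRMZM2G083810). Of all genes 38.8% differed between lines at 38°C. For GRMZM2G083810 the call was lost without L012 replicate 1 (adjusted p = 0.0860), without L043 replicate 1 (0.0628) and without L043 replicate 2 (0.106) at that heat level. The other 4 genes passed in every fit with 1 library left out.

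In GRMZM2G158232, L012 and S067 stood above all other lines at 38°C. S067 had 55.7 and 32.6 CPM and L012 had 34.0 and 33.2 CPM, and these lines overlapped. P040 followed with 12 and 10.9 CPM, then L043 with 8.97 and 8.39 CPM and S058 with 6.73 and 5.04 CPM, each without overlap with its neighbour. The lowest lines were S070 with 0.818 and 1.45 CPM, L023 with 1.10 and 0.514 CPM, which overlapped S070, and L017 with 0.176 and 0.155 CPM. From the lowest to the highest line the mean level spanned 267-fold.

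Part of this order was present in cool leaves. At 25°C the level of GRMZM2G158232 differed between lines (adjusted p = 0.00908), and 27.5% of all genes differed. The other 4 genes gave adjusted p from 0.315 to 1. They held only 0 to 17 reads each over the 16 libraries at 25°C, too few for this test to decide. In GRMZM2G158232, L012 stood highest with 9.38 and 5.46 CPM. Below it came L043 with 3.08 and 3.60 CPM, S058 with 3.39 and 3.21 CPM, P040 with 2.30 and 4.13 CPM and S067 with 3.29 and 1.91 CPM. These 4 lines overlapped with their neighbours in the order. L017 had 0 and 1.58 CPM, S070 had 0.497 and 0 CPM, and L023 had no read in either library at 25°C nor at 32°C, and 13 and 6 reads at 38°C. S067 thus stood among its neighbours without heat and its level at 38°C was 18.0 times that at 25°C (95% counting interval 13.6 to 24.4). The same ratio was 4.44 in L012 (3.52 to 5.68), 3.83 in S070 (1.51 to 12.5), 3.32 in P040 (2.55 to 4.36), 2.59 in L043 (2.0 to 3.38) and 1.75 in S058 (1.32 to 2.36). It was at least 4.20 in L023, against 3 counts over its libraries at 25°C. L017 had a ratio of 0.191 (0.0594 to 0.537), but its libraries at the 2 heat levels overlapped and all 13 reads at 25°C came from 1 of them. Scaled by library totals alone, L017 had 0 and 0.860 CPM at 25°C and 0.425 and 0.312 CPM at 38°C. A fall in L017 is therefore not established.

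GRMZM2G158232 lies beside other small heat shock protein genes, and whether their sequences are alike enough to share reads was not tested. In the RefSeq table (assembly Zm-B73-REFERENCE-NAM-5.0) 3 protein-coding genes lie between it and GRMZM2G049767, and none lies between it and GRMZM2G437100, which the study also annotated as a 16.9 kDa class I heat shock protein. GRMZM2G422240, with no protein-coding gene between it and GRMZM2G158232 either, is listed there as a transcribed pseudogene. How reads with several matches were treated is not given in the sources used here, and all lines were aligned to the genome of the line B73. In L017, where GRMZM2G158232 was lowest, GRMZM2G437100 had 7.50 and 1.65 CPM at 38°C and GRMZM2G422240 had no read. In S067, where GRMZM2G158232 was highest, GRMZM2G422240 had 48.2 and 20.4 CPM, above the 7.08 and 3.95 CPM of L012 and the at most 1.84 CPM of the other lines. The part of shared reads in the differences between lines was not tested either.

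In GRMZM2G306679, S067 led at 38°C with 12.4 and 8.15 CPM and did not overlap any other line. L012 followed with 5.20 and 4.85 CPM, L017 with 5.51 and 2.16 CPM and L023 with 2.70 and 3.00 CPM, which overlapped L017 but not L012. The remaining lines lay lower, S070 with 0.385 and 1.18 CPM, S058 with 0.533 and 0.630 CPM, P040 with 0.761 and 0.330 CPM and L043 with 0.498 and 0.409 CPM, and each overlapped the next. Both libraries of S067, L012, L017 and L023 were thus above every library of the other 4 lines. The upper 4 are 3 Flint lines and the Dent line S067. The mean level of S067 was 22.7 times that of L043. Scaled by library totals alone, L017 (13.3 and 4.37 CPM) did not overlap L023 (4.08 and 3.84 CPM).

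The faint class I gene GRMZM2G049767 had the same 4 lines at the top. S067 had 1.79 and 0.761 CPM (34 and 7 counts), L017 had 1.41 and 0.361 CPM (24 and 7 counts), L012 had 0.0800 and 0.763 CPM (2 and 17 counts) and L023 had 0.507 and 0.171 CPM (6 and 2 counts). Each of them overlapped its neighbour. S058 had 2 counts in each library, P040 had 0 and 1, and L043 and S070 had none at 38°C. A level in L043 or S070 was therefore not detectable at this depth.

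For GRMZM2G034157, L012 had 2.0 and 2.07 CPM at 38°C, L017 had 2.52 and 1.13 CPM, L023 had 1.52 and 1.37 CPM, and S067 had 1.74 and 0.326 CPM. The replicates of S067 held 33 and 3 counts. S058 stood at 0.200 and 0.727 CPM, S070 at 0.385 and 0.263 CPM, L043 at 0.142 and 0.460 CPM and P040 at 0.207 and 0.0659 CPM. Each line overlapped its neighbour in the order, although the highest line had 14.9 times the mean of the lowest.

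GRMZM2G083810 had another order. L012 was again highest with 5.40 and 2.87 CPM, but P040, near the bottom in GRMZM2G034157, GRMZM2G049767 and GRMZM2G306679, came next with 2.49 and 3.49 CPM. L017 followed with 2.99 and 1.34 CPM, S067 with 2.58 and 1.20 CPM and S070 with 1.59 and 1.38 CPM, each overlapping its neighbour. Below them, without overlap, came S058 with 1.07 and 1.16 CPM, L023 with 0.845 and 1.03 CPM and L043 with 0.356 and 0.205 CPM. L043 was the lowest line here and in GRMZM2G306679, and among the lowest in GRMZM2G034157 and GRMZM2G049767, yet in the middle of the order in GRMZM2G158232. Scaled by library totals alone, S070 (2.67 and 2.66 CPM) did not overlap S067 (8.15 and 2.98 CPM) in GRMZM2G083810. Whether the genes differ from each other in the order of lines was not tested.

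**Figure D4:**
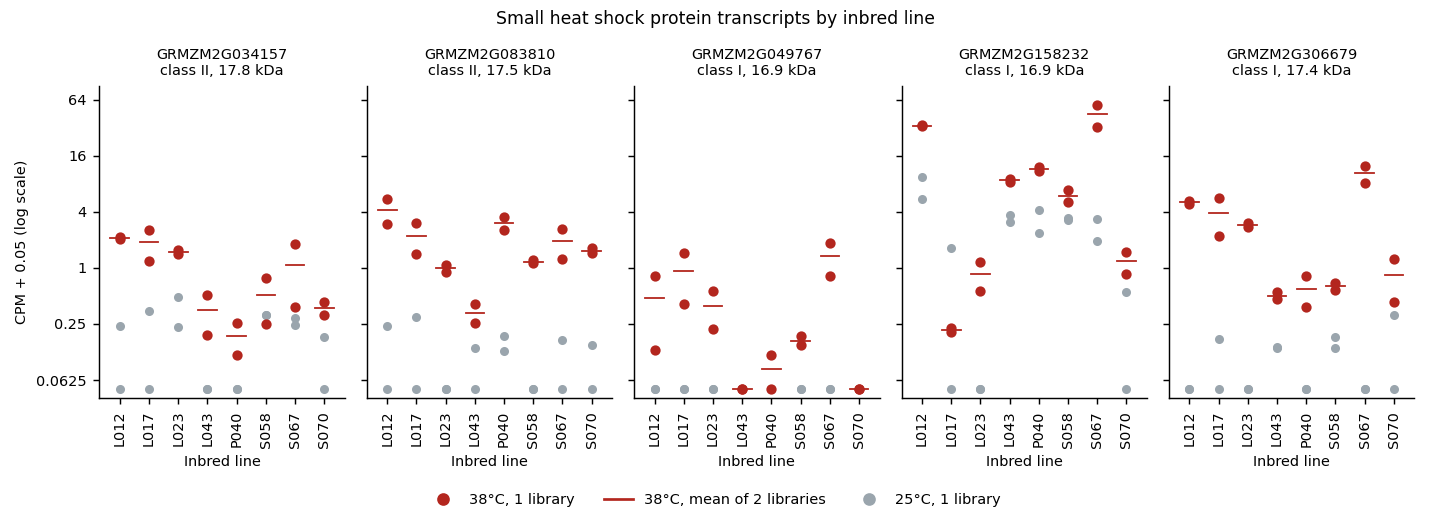
CPM + 0.05 on a log scale in each inbred line. Red points are the 2 libraries at 38°C, red bars their mean, and grey points the libraries at 25°C. S067 and L012 are highest in GRMZM2G158232, S067, L012, L017 and L023 are above the other lines in GRMZM2G306679, and P040 is second in GRMZM2G083810.

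Within a line, both libraries at 38°C lay above both at 25°C in 8 of 8 lines for GRMZM2G083810 and GRMZM2G306679, which was so for 3.65% of all genes. For GRMZM2G034157 this held in 7 lines, with S058 the exception, and for GRMZM2G158232 in 7 lines, with L017 the exception (at least 7 lines: 9.17% of all genes). For GRMZM2G049767 it held in 5 lines (at least 5 lines: 22.2%). Against libraries at 0, single reads suffice for this separation. In P040, GRMZM2G034157 had 3 and 1 counts at 38°C and none at 25°C, which bounds the ratio only at 0.900 or more. In S058, GRMZM2G049767 had 2 and 2 counts against none, with a bound of 0.718. These 2 cases show no rise beyond the floor. In L017 the level of GRMZM2G158232 was 0 and 1.58 CPM at 25°C and 0.176 and 0.155 CPM at 38°C.

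Fitted alone, with 6 libraries (5 for L017), the slopes passed both thresholds in 9 of the 40 combinations of gene and line, all of them positive. S067 had 4 of these, for GRMZM2G306679 (11.79 ± 0.69), GRMZM2G049767 (7.37 ± 1.39), GRMZM2G083810 (6.95 ± 1.32) and GRMZM2G158232 (4.11 ± 0.50), where 0.910% of all genes were called higher. L012 had 3, for GRMZM2G306679 (10.47 ± 0.84), GRMZM2G034157 (7.05 ± 1.41) and GRMZM2G083810 (6.82 ± 0.91), beside 1.40% of all genes. L023 had GRMZM2G306679 (10.60 ± 0.98, beside 0.0726% of all genes) and S058 had GRMZM2G083810 (5.32 ± 1.17, beside 3.16%). In these fits no slope passed in L017, L043, P040 or S070, beside 0.0670%, 0.0838%, 0% and 0.944% of all genes in that order. Unadjusted, p was under 0.05 for 4 members in L017, all but GRMZM2G158232, for GRMZM2G158232 in L043 and for GRMZM2G083810 in P040 and in S070. Without the 3 doubtful libraries, GRMZM2G083810 passed in P040 (4.75 ± 0.62, adjusted p = 0.00120) and in S070 (4.79 ± 0.81, adjusted p = 0.0174), where 4.27% and 3.16% of all genes then passed with a slope beyond 2 in either direction, which makes 11 of 40. In a joint fit of all lines, which shares 1 estimate of the spread, 13 of 40 passed. These were the same 9 and GRMZM2G083810 in P040 (3.78 ± 1.14, adjusted p = 0.0380), in L017 (4.48 ± 1.35, adjusted p = 0.0496) and in L023 (10.73 ± 2.87, adjusted p = 0.0319), and GRMZM2G306679 in L017 (7.40 ± 1.95, adjusted p = 0.025). In that joint fit, genes past both thresholds in either direction numbered 718 of 17905 in L012, 683 in S058, 568 in S070 and 437 in P040. They numbered 389 in S067, 357 in L017, 251 in L023 and 161 in L043. Large slopes with libraries at 0 depend on the prior count, and counted bounds are smaller. In S067 the level of GRMZM2G306679 was at least 68.8-fold higher at 38°C than at 25°C, in L012 at least 16.6-fold and in L023 at least 14.8-fold.

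With 5 libraries left in a line, many of these calls did not last. These fits kept the trend of the spread (dispersion) that was estimated from all libraries of the line. GRMZM2G306679 in S067 and L012 and GRMZM2G158232 in S067 passed whichever library was left out. GRMZM2G083810 in L012 was lost only without replicate 2 at 25°C (adjusted p = 0.0570). GRMZM2G306679 in L023 was lost in 5 of 6 such fits, all but that without replicate 2 at 25°C. GRMZM2G034157 in L012 was lost without replicate 2 at 25°C, replicate 1 at 32°C or either library at 38°C. GRMZM2G049767 in S067 was lost without any of the 4 libraries at 25°C and 38°C. GRMZM2G083810 in S067 was lost without replicate 1 at any heat level or replicate 2 at 38°C, and in S058 without either library at 25°C or replicate 2 at 38°C. Adjusted p in these fits went up to 0.202.

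Whether the slope itself differed between lines was tested in a joint fit of all lines. No gene of the 5 passed, beside 0.173% of all genes (edgeR F test), and the adjusted p ran from 0.247 for GRMZM2G306679 to 1 for GRMZM2G034157. The p before adjustment was under 0.05 for GRMZM2G306679 and GRMZM2G158232. Without the 3 doubtful libraries GRMZM2G306679 passed with an adjusted p of 0.0101, and without P040 at 32°C replicate 2 alone with 0.0248. GRMZM2G158232 stood at 0.0638 without the 3 libraries.

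The slope did not pass as different between Flint and Dent lines for any of the 5 genes (edgeR, adjusted p from 0.525 to 0.885), beside 0.162% of all genes, and none had an unadjusted p under 0.05. The Flint slope minus the Dent slope was 2.19 ± 1.13 for GRMZM2G034157, 3.33 ± 1.87 for GRMZM2G306679, 3.73 ± 2.01 for GRMZM2G049767, and 0.93 for both GRMZM2G083810 (SE 0.99) and GRMZM2G158232 (SE 1.17). Tolerant against susceptible lines gave an adjusted p of 1 for each gene and no unadjusted p under 0.05, beside 0.00559% of all genes. GRMZM2G049767 had no read at 25°C and got no standard error, so its test shows neither a difference nor the lack of one. The difference, tolerant minus susceptible, was 1.43 ± 2.70 for GRMZM2G306679, 0.77 ± 1.09 for GRMZM2G034157, -0.52 ± 0.69 for GRMZM2G083810 and -0.55 ± 0.86 for GRMZM2G158232. These standard errors are the difference divided by the root of the F statistic, and are a rough guide for genes at 0 in several libraries. In both contrasts libraries, not lines, were the replicates. The p and the standard errors therefore do not measure the spread between the 4 lines of a class. Neither difference passed for any of the 5 genes without the 3 doubtful libraries, with no unadjusted p under 0.05. The tolerant lines S067 and L012 were at the top at 38°C in GRMZM2G158232 and GRMZM2G306679, while the tolerant line L043 was at the bottom in GRMZM2G306679 and GRMZM2G083810.

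Over the 24 means of line and heat level, the profile of GRMZM2G306679 was most like that of GRMZM2G049767 among the members (Pearson's r of log2 CPM 0.889) and that of GRMZM2G083810 (0.851). GRMZM2G158232 stood apart, with r from 0.02 with GRMZM2G034157 to 0.402 with GRMZM2G083810. These correlations describe the means, which share libraries and depth. Over the 23 means that remain without the doubtful libraries they were 0.901 with GRMZM2G049767 and 0.848 with GRMZM2G083810 for GRMZM2G306679, and 0.01 to 0.402 for GRMZM2G158232. Among all other genes with a mean of at least 0 log2 CPM, GRMZM5G833699, named hsp82 and thus an HSP90 gene, was closest to GRMZM2G306679 (r = 0.914, or 0.921 over the 23 means) and to GRMZM2G083810 (r = 0.904 in either case). GRMZM2G310431, an HSP70 gene, came after GRMZM2G013176 (r = 0.901) for GRMZM2G083810, with r = 0.898. GRMZM2G128744 (r = 0.885) and GRMZM2G110869 (r = 0.881) followed for GRMZM2G306679. The closest profile to GRMZM2G158232 was that of GRMZM2G063322 (r = 0.855), which had a log2 slope of 0.71 (adjusted p = 0.116), and the closest to GRMZM2G034157 and GRMZM2G049767 was GRMZM2G364612 (r = 0.798 and 0.743).

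The other genes of the heat response give the setting for these 5. At an adjusted p under 0.05 alone, 24.3% of all genes rose with temperature and 19.7% fell. Of 3 further sHSP genes found by name, all rose with temperature. HSP26 (GRMZM2G149647), a chloroplast sHSP, had a log2 slope of 8.10 ± 0.69, HSP22 (GRMZM2G007729) had 4.86 ± 0.46, and hsp18a (GRMZM2G404249) had 1.48 ± 0.47. Of 11 large chaperone genes, taken by names beginning with hsp60, hsp70, hsp9, hsp100, hsp101, hsc, cpn or bip, 6 rose, 1 fell and 4 did not pass, with a median slope of 1.63. That rule does not take hsp82, and with it 7 of 12 rose and the median was 1.66. GRMZM2G111477 and GRMZM2G458208, both among those that rose, share the name CPN60I. Among the 11, the largest slopes were those of HSP101 (GRMZM2G360681), which pulls proteins out of aggregates, with 4.67 ± 0.48, and of the HSP70 gene GRMZM2G310431, with 4.10 ± 0.38. Of 8 identifiers named as heat stress transcription factors, the family that switches on sHSP genes, 1 rose, 4 fell and 3 did not pass, with a median slope of -0.30. Hsf17 (GRMZM2G125969) fell by 1.44 ± 0.25 on the log2 scale. GRMZM2G133023 had a slope of 1.15 ± 0.53 (adjusted p = 0.0755). It shares the name Hsf05 with GRMZM2G132971, which is among those that fell, with a slope of -0.46 ± 0.17. Of the 21 other genes in the heat stress class of the study, which were selected on these libraries, 20 rose and 1 fell, with a median slope of 4.10. The largest slopes among them were those of HSP26 and of hsp82 (7.46), and the gene that fell was GRMZM2G175860 (-2.98). The median of the 5 genes described here was 4.62, beside 0.08 for all genes.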

How the data were processed

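Leaf RNA of 8 maize inbred lines at 3 heat levels was sequenced as single-end reads in 47 libraries. The authors aligned reads to B73 RefGen_v3 with TopHat2 2.0.3 and deposited raw counts per gene for 17905 genes, all with at least 2 CPM in at least 2 libraries. How reads matching several places were counted, and whether strand was used, is not given in the sources used here. Totals were 3687700 to 20642205 counts per library (median 12346491).

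Counts were scaled by TMM and tested with edgeR 4.0.16 in R 4.3.3 (quasi-likelihood F test, prior count 0.125), with p adjusted by Benjamini-Hochberg over all genes. Heat was coded 0 at 25°C and 1 at 38°C. The slope over all libraries had no covariate, while the steps and the departure took heat levels as classes with the line as a covariate. Calls needed an adjusted p under 0.05, and for slopes over all libraries or within a line also a log2 slope beyond 2. Replicates were pools of different plants. Scripts were tested on simulated data. Profiles were correlated on log2 CPM with a prior count of 2. Intervals for ratios are exact at 95%. Alternatives were DESeq2 1.42.0 and its size factors, a likelihood ratio test, filterByExpr, scaling without abundant genes, thinning to 3687700 counts, a replicate block and leaving out libraries or lines. Fits with 1 library left out kept the dispersion trend estimated with that library included, so its effect on that trend was not tested. Scaling by library totals and leaving out the 2 crossed libraries were chosen after seeing the data, as were the profile correlations without the doubtful libraries and the chaperone list with hsp82.

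The text names all 5 members, for each the genes with the most similar profiles, and the genes of each list with the largest slopes, while hsp18a, GRMZM2G175860 and the neighbouring copies GRMZM2G437100 and GRMZM2G422240 were added after their values were seen. Of all identifiers 12358 matched the RefSeq table (assembly Zm-B73-REFERENCE-NAM-5.0), including the 5 members, and of its coordinates only the order of genes was used. Further sHSP genes were found by name. The members and lists were chosen with earlier results of these data known. Where replicate 1 and 2 share a number across groups, deviations correlated between -0.17 and 0.422 over 22 pairs, with 14 above 0.1. Most were positive, but not every pair was above 0.1 and no source ties the numbers together, so the main fits have no replicate block. The lane of each library is not given in the sources used here.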

Additional observations from a re-analysis of the deposited data

How the results depend on the processing

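Under the other settings, 512 of 546 values kept their direction and their side of the threshold, 10 lost the threshold, 12 gained it and 12 turned direction. With 1 library left out these numbers were 2111, 24, 9 and 25 of 2169. Values with no adjusted p under a setting, as for genes removed by filterByExpr, are not in these numbers, so calls lost in that way are left out. Of the slopes within a line, only those past both thresholds in the main fits are included. The cause of these changes was not tested, except where the setting itself removed genes or libraries.

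Of the 5 genes, 2 were called for the slope over all libraries with filterByExpr, which removed GRMZM2G034157, GRMZM2G049767 and GRMZM2G306679 and kept 16019 genes. Between 25°C and 32°C, 1 was called without the 3 doubtful libraries and 5 with library totals alone, and 3 to 4 with 1 library left out. Between 32°C and 38°C, 5 were called without the 3 libraries, without the 2 crossed libraries and with library totals alone, and 3 to 5 with 1 library left out. With all libraries thinned to 1 depth, GRMZM2G049767 missed the lower step (adjusted p = 0.0729) and GRMZM2G306679 the upper (adjusted p = 0.0501). The slopes differed between lines for 1 gene by the likelihood ratio test, for 1 without the 3 libraries and for 0 to 1 with 1 library left out. Slopes within a line numbered 21 by the likelihood ratio test, 1 with filterByExpr, 29 with library totals alone and 7 to 12 with 1 library left out. Lines differed at 38°C for 4 to 5 genes with 1 library left out.

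Estimates that turned direction passed no threshold before or after. The departure from linearity was -0.0375, -0.11 and -0.15 by the likelihood ratio test for GRMZM2G083810, GRMZM2G158232 and GRMZM2G306679. Without the 3 libraries it was -0.68, -0.50 and -1.31 for these and -0.22 for GRMZM2G049767, and for GRMZM2G158232 it was -0.0949 with library totals and -0.26 without the crossed libraries. With 1 library left out it ran from -0.50 to 0.29, from -0.38 to 0.15 and from -0.39 to 0.89 for GRMZM2G083810, GRMZM2G158232 and GRMZM2G306679. For GRMZM2G083810 the Flint minus Dent slope was -0.49 after thinning, and -0.16 to 1.86 with 1 library left out, and the tolerant minus susceptible slope was 1.69 after thinning, 0.46 with library totals, and -1.45 to 0.56 with 1 library left out. That contrast ran from -0.36 to 1.52 for GRMZM2G049767 and from -0.46 to 1.96 for GRMZM2G306679.

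Over all genes, slopes over all libraries beyond the limit numbered 602, against 315 with filterByExpr and 7487 with library totals. The lower step gave 6905 calls, against 4354 after thinning and 13411 with library totals, and the upper step 5936, against 3945 and 15981. The departure gave 4378, against 2721 after thinning, and lines at 25°C 4923, against 1673. The interaction gave 31, against 331 by the likelihood ratio test, 0 after thinning, 84 without the 3 and 57 without the crossed libraries. Flint against Dent gave 29, against 123, 6, 100 and 83, and tolerant against susceptible 1, against 11 and 0, with 2 under the replicate block and 18 with library totals.

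The replicate block left the counts of members called in all comparisons between heat levels and lines as they were (5 for the slope over all libraries, 3 and 3 for the steps), and the slope of GRMZM2G083810 in S067 lost its call (6.79, adjusted p = 0.0523). The 119 to 990 reads of 4 of the genes limit every within-line value.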
